A study of Mus musculus with 15 samples.

Results

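The 10 genes described here belong to the circadian clock, out of 48795 genes counted in every library. They are Arntl and Npas2 (activators), Per1, Per2 and Per3 (repressors), Nr1d1 and Nr1d2 (nuclear receptors of the secondary loop), and Dbp, Tef and Hlf (the PAR bZIP output factors). They were picked by symbol, paired with the Ensembl identifiers of the counts through GENCODE M21. The choice was made with the differences between the groups in these libraries already known. Member levels, fold changes and counts of members past a threshold below are thus a description and no test of the members.

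The 15 libraries hold polyA RNA of ear tissue from female mice, 5 weeks of age. The control group has 5 libraries, whose treatment label is control and nothing more, although the ear inflammation model is named in the labels of all 15. The PMA_ethanol group (n = 4) received the phorbol ester PMA, a protein kinase C activator used to provoke sterile skin inflammation, and its label also names ethanol. The PMA_1002 group (n = 6) received PMA and, per the series title, the innate defense regulator peptide 1002, a short synthetic peptide; ethanol is missing from its label, and any effect of a differing vehicle cannot be told apart from that of the peptide. The sources used here do not state strain, doses or the time from PMA to collection. The hour of day at which ears were collected is not stated either, so a difference in clock time between the groups cannot be told apart from the treatment. Nothing in the labels ties libraries to separate animals, so the p-values reflect only how these samples vary, which may be technical variation.

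In mammalian cells the clock is a feedback loop of transcription. ARNTL (also called BMAL1), paired with CLOCK or its relative NPAS2, binds E-boxes and drives the Per, Cry, Nr1d1, Nr1d2 and Dbp genes. PER and CRY proteins then repress that activity, while NR1D1 and NR1D2 (REV-ERB alpha and beta) compete with ROR receptors at ROR elements and repress Arntl. DBP, TEF and HLF activate genes through D-boxes, where the repressor NFIL3 (E4BP4) competes with them. The loop runs in keratinocytes, fibroblasts and immune cells of skin.

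The promoter windows printed below were picked among those of the members that held a match to 1 of 5 motifs. RefSeq windows on GRCm38.p6, from 250 bases before to 50 after an annotated start, were found for 9 of the 10 members (all but Per2), 12 windows in all. The 5 motifs were searched on both strands and are in capitals: the E-box CACGTG, the E'-box CACGTT, the D-box TTATGTAA or TTACGTAA, the ROR element core TAGGTCA or TGGGTCA, and the cAMP response element TGACGTCA. No matches to different motifs overlapped in the member windows. The Per3 window (chr4:151044616-151044915, minus strand) held 2 D-boxes, at 205 and 158 bases before the start. Windows of Tef (chr15:81811164-81811463, plus strand) and Per1 (chr11:69098699-69098998, plus strand) each held an E-box, and so did the window of the other annotated Tef start. The Arntl window (chr7:113207261-113207560, plus strand) held a ROR element, and the Hlf window (chr11:90390868-90391167, minus strand) a cAMP response element.
Per3: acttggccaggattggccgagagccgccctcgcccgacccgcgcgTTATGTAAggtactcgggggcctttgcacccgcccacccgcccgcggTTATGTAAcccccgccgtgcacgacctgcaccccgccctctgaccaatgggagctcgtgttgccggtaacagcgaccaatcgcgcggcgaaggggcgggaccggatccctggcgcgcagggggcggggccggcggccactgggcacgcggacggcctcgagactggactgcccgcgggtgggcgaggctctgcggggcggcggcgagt
Tef: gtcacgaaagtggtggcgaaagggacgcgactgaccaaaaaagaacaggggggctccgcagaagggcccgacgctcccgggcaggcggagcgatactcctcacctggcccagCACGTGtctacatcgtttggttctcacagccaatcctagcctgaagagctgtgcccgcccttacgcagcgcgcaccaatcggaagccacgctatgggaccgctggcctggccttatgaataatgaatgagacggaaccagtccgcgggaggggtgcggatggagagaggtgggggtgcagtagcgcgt
Per1: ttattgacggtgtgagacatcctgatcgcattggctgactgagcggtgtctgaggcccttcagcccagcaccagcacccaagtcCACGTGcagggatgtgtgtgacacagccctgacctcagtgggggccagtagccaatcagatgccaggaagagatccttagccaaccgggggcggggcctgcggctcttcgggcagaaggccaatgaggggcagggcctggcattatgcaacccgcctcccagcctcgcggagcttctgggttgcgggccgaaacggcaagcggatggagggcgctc
Arntl: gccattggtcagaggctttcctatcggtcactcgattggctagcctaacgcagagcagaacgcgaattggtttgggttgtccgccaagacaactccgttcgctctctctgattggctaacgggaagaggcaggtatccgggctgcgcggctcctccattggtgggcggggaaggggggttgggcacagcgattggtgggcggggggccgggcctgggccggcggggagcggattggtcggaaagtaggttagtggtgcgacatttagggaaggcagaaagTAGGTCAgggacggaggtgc
Hlf: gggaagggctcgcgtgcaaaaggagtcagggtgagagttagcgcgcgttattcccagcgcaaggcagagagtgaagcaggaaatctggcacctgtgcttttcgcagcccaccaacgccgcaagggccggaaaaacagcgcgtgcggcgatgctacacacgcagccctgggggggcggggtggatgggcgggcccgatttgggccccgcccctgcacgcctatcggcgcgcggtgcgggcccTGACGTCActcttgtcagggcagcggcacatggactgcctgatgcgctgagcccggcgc
Of all 32851 promoter windows of this length, 1.06% held the D-box, 7.15% the E-box, 4.68% the E'-box, 6.45% the ROR element and 1.79% the cAMP response element. Among the 12 member windows, 1 held the D-box, 3 the E-box, 1 the E'-box (Nr1d1, 28 bases before the start), 1 the ROR element and 1 the cAMP response element. A match describes these letters in this window and is not evidence of binding.

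Depth, as reads assigned to genes, was lowest in PMA_ethanol library 3 (2656680) and highest in PMA_1002 library 5 (28585995), and each member passed the filter on low counts. The fewest reads of any member in a library were 24, for Dbp in PMA_ethanol library 3. The labelled tissue was checked on markers: epidermal keratins, fibroblast, cartilage and skeletal muscle genes were present in each group, with Matn1, a cartilage matrix gene, without reads in control and PMA_1002. Hair follicle keratins varied within each group, and 6 libraries (control 3 and 5, PMA_ethanol 1 and 2, PMA_1002 1 and 4) had a summed level of at least 500 CPM and are called hair-rich below. Fits without them kept, of PMA_ethanol, only library 3, the shallowest, and library 4, which stood apart for Per2, Cry2 and Ciart. Hair content and this makeup of the group cannot be told apart in those fits. CPM is the read count scaled to the TMM-adjusted library size.

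In PMA_ethanol ears the 3 PAR bZIP genes and Per3 were far below the controls, while Arntl and Per1 were near them. Mean CPM was 10.8-fold lower for Dbp, 10.5-fold lower for Hlf, 6.14-fold lower for Per3 and 4.33-fold lower for Tef. Nr1d1 and Nr1d2 were 1.90-fold and 2.15-fold lower. In PMA_1002 ears the same 4 genes of largest difference stood between the other groups, and no library of one group overlapped another group for any of the 4. In a whole ear, fewer cells of a type and less RNA per cell cannot be told apart.

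**Figure D1:**
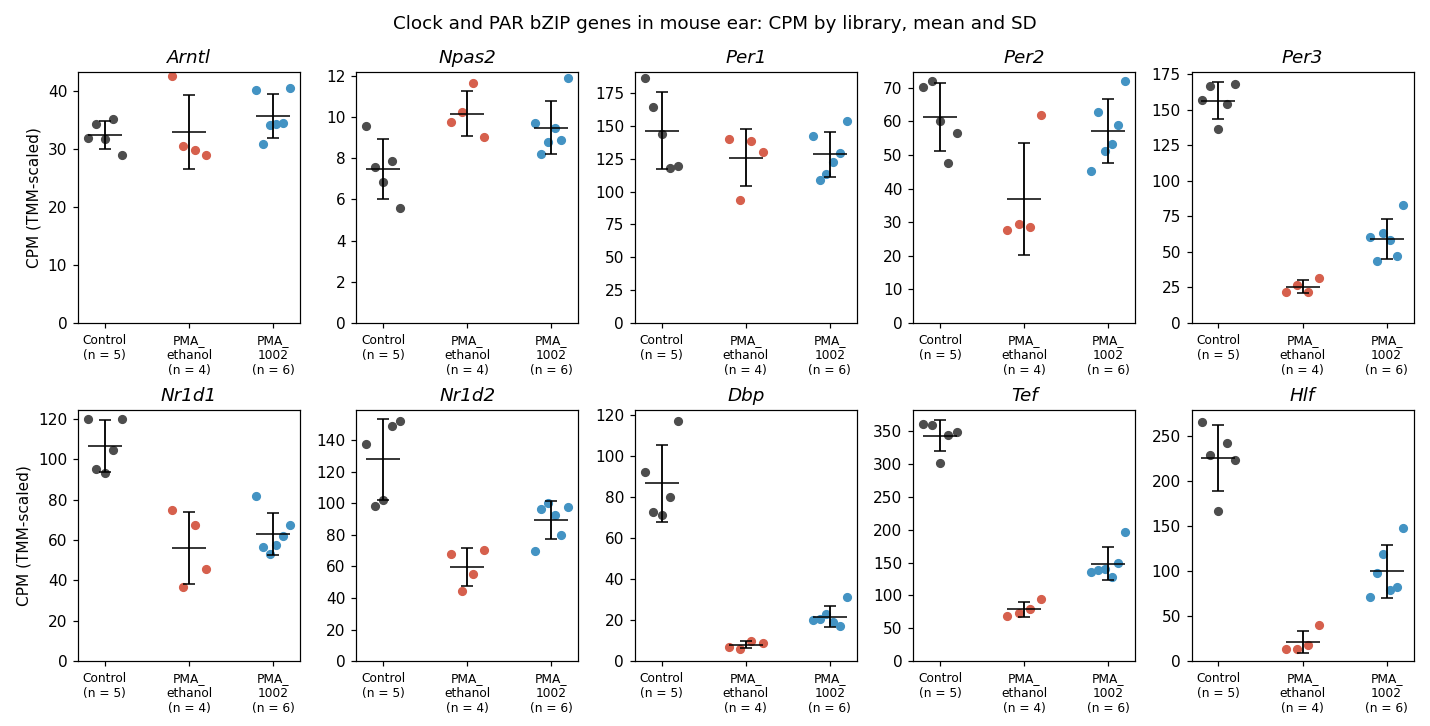
CPM of each of the 10 genes by library (vertical axes, linear, from 0) in the 3 groups, with points for libraries and bars for mean ± SD. Dbp, Tef, Hlf and Per3 form 3 separate bands, with control highest, PMA_1002 between and PMA_ethanol lowest, whereas Arntl and Per1 overlap in all groups.

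Dbp encodes a D-box activator of the PAR bZIP family and is a direct E-box target of the clock. Its CPM in control libraries 1 to 5 was 92.6, 73.0, 71.4, 80.3 and 117, and in PMA_ethanol libraries 1 to 4 it was 7.13, 6.18, 9.96 and 8.87. In PMA_1002 it ran from 17.0 to 31.2 with a median of 20.4. The highest PMA_ethanol library lay far below the lowest PMA_1002 library, and the highest PMA_1002 library far below the lowest control. The log2 fold change was -3.50 (SE 0.209) for PMA_ethanol versus control, 1.5 (SE 0.198) for PMA_1002 versus PMA_ethanol and -2.0 (SE 0.161) for PMA_1002 versus control.

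Hlf, which encodes a PAR bZIP factor also known from blood stem cells and leukaemia fusions, gave the widest spread. Control libraries 1 to 5 had 265, 229, 166, 242 and 223 CPM, and PMA_ethanol libraries 1 to 4 had 14.1, 13.2, 18.3 and 39.9. PMA_1002 libraries ran from 71.5 to 148 with a median of 90.1. PMA_ethanol library 4 stood above the other 3 of its group but below every PMA_1002 library. The log2 fold changes, in the same order of comparisons, were -3.42 (SE 0.344), 2.24 (SE 0.325) and -1.18 (SE 0.264). Without PMA_ethanol library 4 the first was -3.95 and the mean of that group went from 21.4 to 15.2 CPM, which puts it 14.8-fold below control and 6.55-fold below PMA_1002.

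Tef, the most abundant PAR bZIP gene, had 360.2, 359, 302, 344 and 348 CPM in control libraries 1 to 5. It had 68.4, 73.6, 80.1 and 94.7 CPM in PMA_ethanol libraries 1 to 4, and 128 to 197 with a median of 139.9 in PMA_1002. The 3 groups did not overlap. Its log2 fold changes were smaller in size than those of Dbp, at -2.12 (SE 0.125) and 0.91 (SE 0.117), and it stood at -1.21 (SE 0.105) in PMA_1002 versus control, near the value of Hlf.

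The 3 Per genes, which encode the repressor partners of the CRY proteins, differed from one another. Per3 had 157, 167, 136, 154 and 168 CPM in control libraries 1 to 5 and 22.04, 26.5, 21.99 and 31.3 in PMA_ethanol libraries 1 to 4. In PMA_1002 it ran from 43.7 to 82.9 with a median of 59.5, again apart from both other groups. Its log2 fold changes were -2.60 (SE 0.168), 1.19 (SE 0.159) and -1.41 (SE 0.136).

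Per2 in control libraries 1 to 5 was 70.2, 72.2, 60.2, 47.8 and 56.6 CPM. PMA_ethanol libraries 1 to 3 had 27.7, 29.4 and 28.6 CPM, and library 4 had 61.8, inside the control range. PMA_1002 ran from 45.2 to 72.0 with a median of 56.1, over the range of the controls. The log2 fold changes were -0.73 (SE 0.222), 0.63 (SE 0.214) and -0.10 (SE 0.194). Without PMA_ethanol library 4 the first 2 were -1.10 and 1.001, and the remaining 3 libraries lay below each control and each PMA_1002 library.

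Per1, which is also an early response gene of cAMP and glucocorticoid signals, overlapped across the groups. It had 186, 164, 144, 118 and 119 CPM in control libraries 1 to 5 and 140.1, 93.8, 139 and 129.9 in PMA_ethanol libraries 1 to 4. PMA_1002 ran from 109 to 154 with a median of 126. The log2 fold changes were -0.23 (SE 0.15), 0.04 (SE 0.144) and -0.19 (SE 0.134). The first depended on the scaling, at -0.47 with upper-quartile and -0.46 with total-read scaling. Relative to the median of all genes it was at -0.159 with TMM and -0.162 with upper-quartile scaling.

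Nr1d1 and Nr1d2 encode the REV-ERB repressors of Arntl. Nr1d1 had 119.8, 95.1, 93.3, 104 and 120.0 CPM in control libraries 1 to 5, and 74.7, 36.5, 67.2 and 45.5 in PMA_ethanol libraries 1 to 4. In PMA_1002 it ran from 53.3 to 81.7 with a median of 59.5. Each library of the groups with PMA lay below each control, and those 2 groups overlapped each other. The log2 fold changes were -0.95 (SE 0.185), 0.19 (SE 0.178) and -0.75 (SE 0.162).

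Nr1d2 had 137, 98.5, 102, 149 and 152 CPM in control libraries 1 to 5, and 67.8, 44.6, 55.2 and 70.2 in PMA_ethanol libraries 1 to 4. PMA_1002 ran from 69.6 to 100.4 with a median of 94.4. PMA_1002 overlapped both other groups, while PMA_ethanol lay below the controls. The log2 fold changes were -1.10 (SE 0.165), 0.59 (SE 0.158) and -0.52 (SE 0.143).

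Of the activators, Arntl was close to its control level and Npas2 somewhat above it. Arntl had 31.9, 34.3, 31.8, 35.1 and 29.0 CPM in control libraries 1 to 5 and 42.5, 30.6, 29.9 and 29.0 in PMA_ethanol libraries 1 to 4. PMA_1002 ran from 30.8 to 40.5 with a median of 34.4, and the 3 groups overlapped. Its log2 fold changes were 0.03 (SE 0.118), 0.11 (SE 0.113) and 0.14 (SE 0.106). With upper-quartile scaling, which shifted the median of all genes by -0.236 and -0.158 in the first and last comparison, Arntl was at -0.21 and -0.018 there. Relative to the median of all genes it was at 0.101 with TMM and 0.097 with upper-quartile scaling for PMA_ethanol versus control.

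Npas2, which can stand in for CLOCK as the partner of ARNTL, was the member of lowest TPM in each group. In CPM it had 9.54, 7.58, 6.82, 7.86 and 5.58 CPM in control libraries 1 to 5, 9.76, 10.2, 11.6 and 9.01 in PMA_ethanol libraries 1 to 4, and 8.21 to 11.9 with a median of 9.17 in PMA_1002. Control library 1 lay within the ranges of both other groups, and the other 4 controls below them. The log2 fold changes were 0.43 (SE 0.157), -0.09 (SE 0.149) and 0.34 (SE 0.142).

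**Figure D2:**
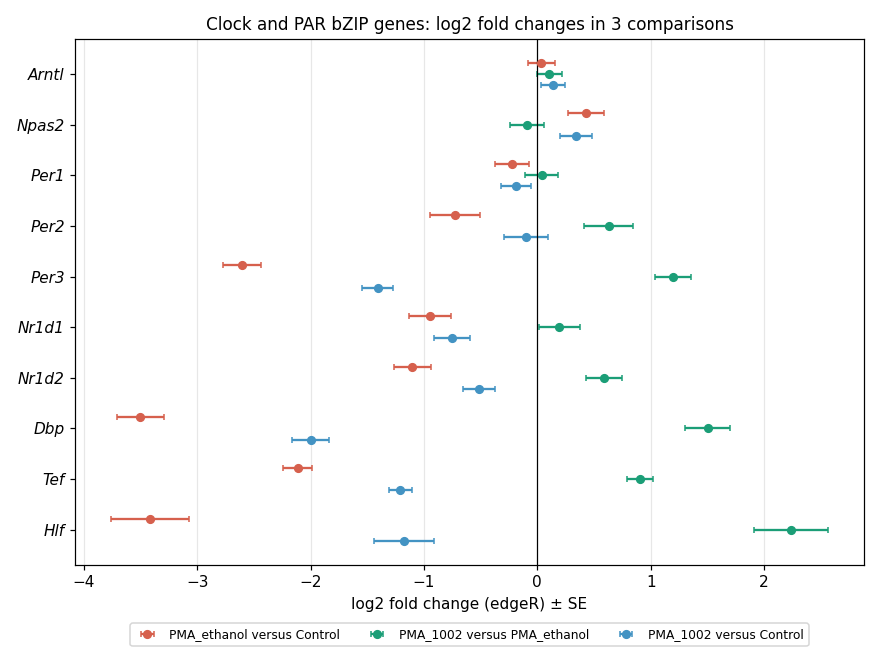
Log2 fold changes (horizontal axis) ± SE of the 10 genes in the 3 comparisons, from the edgeR fit over all 15 libraries. Dbp, Hlf, Per3 and Tef lie between -3.50 and -2.12 for PMA_ethanol versus control, and Arntl and Per1 lie near 0 in each comparison.

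As counts, 7 of the 10 members were lower and 1, Npas2, was higher in PMA_ethanol than in control by the edgeR quasi-likelihood test at an adjusted p under 0.05, where 35.9% of the 14991 genes tested were lower and 32.5% higher. In PMA_1002 versus PMA_ethanol 6 were higher and 0 lower (17% and 18% of all genes, 35% in either direction). In PMA_1002 versus control 6 were lower and 0 higher (26.7% and 28.4% of all genes, 55% in either direction). The CPM ranges of the groups did not overlap for 6, 4 and 5 members in the order of the comparisons, beside 57.8%, 24.1% and 36.7% of all genes. The members' median log2 fold changes were -1.03, 0.61 and -0.64, and those of all genes -0.067, 0.032 and -0.029. Because these contrasts were known when the members were chosen, the counts add nothing to the values above. The call of Npas2 was lost without control library 3, control library 5 or PMA_ethanol library 3, which left 0 members higher in each case. With upper-quartile scaling, which shifted the median of all genes by -0.236, 0 members were higher and 8 lower in that comparison. The shares of all genes called with that scaling or with a library left out are not given here, so nothing is read from these counts.

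Levels of different genes were compared per length, as TPM, computed over union exon length. In control Tef was highest at 162 ± 9.34 TPM (SD, n = 5), with a range above that of Nr1d1, the next in order. The highest Dbp library (146.14 TPM) just exceeded the lowest Tef library (146.02 TPM). Nr1d1 (129 ± 14.2), Hlf (125 ± 18.5), Dbp (108 ± 23.0), Per1 (96.5 ± 18.4) and Nr1d2 (87.7 ± 17.0) followed, each with a range that overlapped that of the gene before it. Per3 (60.6 ± 4.65), Per2 (39.0 ± 6.21), Arntl (16.0 ± 1.19) and Npas2 (5.79 ± 1.04) came last, with no overlap between neighbours. In PMA_ethanol the order began with Per1 at 67.5 ± 9.72 and Nr1d1 at 54.7 ± 15.1 TPM (n = 4), and Dbp (8.15 ± 1.68) and Per3 (8.11 ± 1.76) stood below Arntl (13.3 ± 2.06). In PMA_1002 Per1 (76.4 ± 12.0), Nr1d1 (68.5 ± 11.5) and Tef (63.3 ± 12.7 TPM, n = 6) led with overlapping ranges, and Dbp (24.6 ± 6.36) was again above Arntl (15.9 ± 1.99).

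Ratios of 2 genes within a library do not depend on the scaling between libraries. The log2 ratio of Dbp to Arntl was 1.54, 1.09, 1.17, 1.19 and 2.01 in control libraries 1 to 5 and -2.58, -2.31, -1.58 and -1.71 in PMA_ethanol libraries 1 to 4. In PMA_1002 it ran from -1.01 to -0.38. Dbp CPM thus exceeded those of Arntl in each control and fell short of them in each library with PMA. The sign depends on gene length, since Arntl has 7523 exonic bases and Dbp 2993: per length, Dbp in PMA_1002 lay above Arntl, as given above. The log2 ratio of Per3 to Per1 averaged 0.12 ± 0.31 in control (SD, n = 5), -2.30 ± 0.43 in PMA_ethanol (n = 4) and -1.13 ± 0.25 in PMA_1002 (n = 6), and these ranges did not overlap either. These ratios use the same contrasts as the choice of members and are given without a test.

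**Figure D3:**
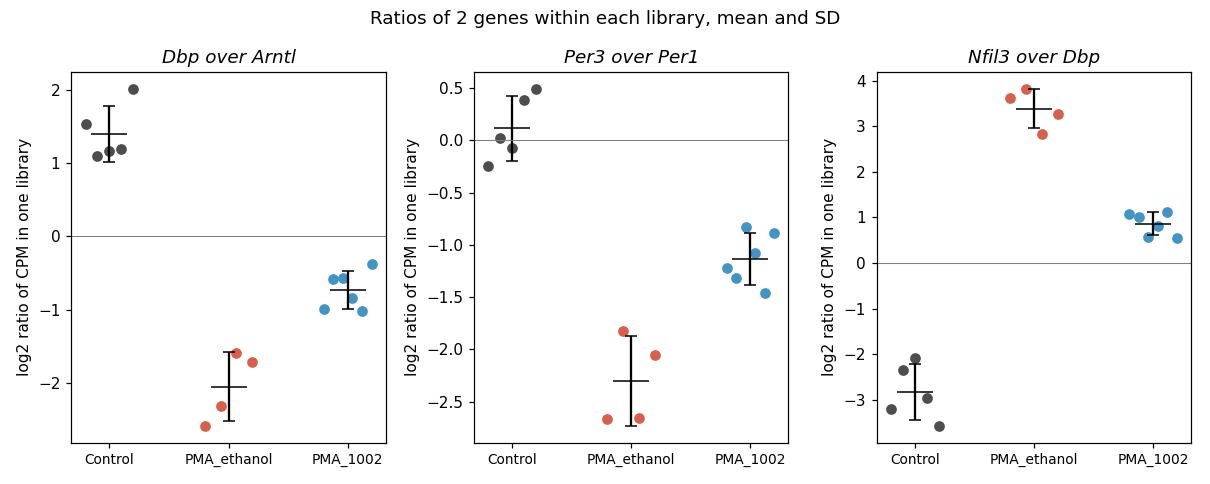
Log2 ratios of the CPM of 2 genes within each library (vertical axes) by group, with mean ± SD. The ratio of Dbp to Arntl lies above 0 in the 5 controls and below 0 in the other 10 libraries (in CPM, not corrected for gene length), and the ratio of Nfil3 to Dbp does the reverse.

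The clock genes outside the 10 were taken from 3 lists of 30 genes in all, of which 28 passed the filter on low counts (not Rorb and Fbxl21). These lists, and the glucocorticoid and marker lists below, were also chosen with earlier results of these data known. The p-values of their genes are thus no independent test. For PMA_ethanol versus control 9 rose and 10 fell by the edgeR test (32.5% and 35.9% of all genes), with a median log2 fold change of -0.10 beside -0.067 for all genes. With upper-quartile or total-read scaling that split was 9 and 15. For PMA_1002 versus PMA_ethanol 9 were higher and 7 lower (17% and 18% of all genes), with a median of 0.14 beside 0.032. That split was 14 and 7 with total-read scaling, where the median of all genes was 0.144, and 2 and 8 without the 6 hair-rich libraries. For PMA_1002 versus control 10 were higher and 9 lower (28.4% and 26.7% of all genes), with a median of 0.09 beside -0.029. The split was 7 and 10 with upper-quartile scaling. The shares of all genes called in these alternative fits are not given here, so nothing is read from their splits. In the list of other clock transcription factors and repressors 3 of 10 tested genes rose and 5 fell in the first comparison, 6 were higher and 2 lower in the second, and 4 and 4 in the last. The shares of all genes beside these counts are those given above for each comparison in the main fit.

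Nfil3, the D-box repressor that opposes the PAR bZIP factors, moved opposite to them. It had 10.1, 14.3, 16.8, 10.3 and 9.84 CPM in control libraries 1 to 5 and 87.7, 87.7, 71.35 and 85.4 in PMA_ethanol libraries 1 to 4, and ran from 33.8 to 45.6 in PMA_1002. The 3 groups did not overlap. It rose by 2.74 on the log2 scale with PMA_ethanol (SE 0.151, edgeR adjusted p = 8.06e-11) and was lower by -1.09 in PMA_1002 than in PMA_ethanol (SE 0.134, edgeR adjusted p = 9.58e-06). It stayed above control in PMA_1002, by 1.66 (SE 0.140, edgeR adjusted p = 5.25e-08). The log2 ratio of Nfil3 to Dbp was -2.83 ± 0.61 in control, 3.39 ± 0.43 in PMA_ethanol and 0.86 ± 0.25 in PMA_1002 (SD, n = 5, 4 and 6).

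Bhlhe40 and Bhlhe41 encode the paralogous E-box repressors DEC1 and DEC2, and they went in opposite directions with PMA_ethanol. Bhlhe40 rose from 69.4 ± 5.42 CPM in control to 467 ± 28.3, by 2.75 (SE 0.105, edgeR adjusted p = 9.92e-13), and stood at 262 ± 37.7 in PMA_1002. That was lower than PMA_ethanol by -0.83 (SE 0.0956, edgeR adjusted p = 4.91e-06). Bhlhe41 fell to 18.7 ± 3.89 CPM from 44.6 ± 8.33 in control, a change of -1.25 (SE 0.147, edgeR adjusted p = 9.26e-07). Its value in PMA_1002, 24.7 ± 1.65 CPM, was above PMA_ethanol by 0.40 (SE 0.141, edgeR adjusted p = 0.035), a call lost in 12 of 23 alternatives (adjusted p from 0.00453 to 0.321), among them the fits without PMA_ethanol library 1, 2 or 3 and without PMA_1002 library 2, 3, 4, 5 or 6.

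The 2 Cry genes, whose proteins repress CLOCK and ARNTL together with PER, also diverged. Cry2 fell from 94.8 ± 10.9 to 46.0 ± 7.15 CPM with PMA_ethanol, by -1.04 (SE 0.115, edgeR adjusted p = 4.26e-07), and was at 69.1 ± 8.02 in PMA_1002. Cry1 rose to 54.5 ± 4.57 CPM from 37.2 ± 2.17, a change of 0.55 (SE 0.0965, edgeR adjusted p = 8.48e-05), and was at 55.2 ± 6.57 CPM in PMA_1002, 0.02 from PMA_ethanol (SE 0.0922, edgeR adjusted p = 0.876). Clock, the main partner of Arntl, was at 74.5 ± 9.995, 69.4 ± 9.68 and 90.2 ± 9.48 CPM in control, PMA_ethanol and PMA_1002. It did not pass in PMA_ethanol versus control (-0.12, SE 0.115, edgeR adjusted p = 0.386), although it was lower there with upper-quartile scaling (-0.35, edgeR adjusted p = 0.00965) and total-read scaling (-0.35, edgeR adjusted p = 0.00991). It was higher in PMA_1002 than in PMA_ethanol by 0.39 (SE 0.111, edgeR adjusted p = 0.0111), a call lost in 1 of 23 alternatives, without the 6 hair-rich libraries (adjusted p = 0.0817). It was also higher in PMA_1002 than in control by 0.28 (SE 0.103, edgeR adjusted p = 0.0297), a call lost in 8 of 23 alternatives (adjusted p from 0.00553 to 0.322). Those 8 include the fits without control library 2 or 3 or without PMA_1002 library 2, 3 or 5.

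Among the other repressors and receptors, Ciart, a repressor of the loop also called CHRONO, fell from 15.5 ± 2.19 to 6.54 ± 2.13 CPM with PMA_ethanol, by -1.24 (SE 0.183, edgeR adjusted p = 1.28e-05). Rora, which encodes a receptor that activates through ROR elements, fell by -0.79 (SE 0.144, edgeR adjusted p = 0.000118). In PMA_1002 both were above PMA_ethanol, by 0.66 and 0.67 (edgeR adjusted p = 0.00809 and 0.00135). The Ciart and Cry2 calls there were lost without the 6 hair-rich libraries (adjusted p = 0.403 and 0.0645).

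Of the 7 listed outputs shared by many tissues 3 rose and 2 fell with PMA_ethanol, beside 32.5% and 35.9% of all genes. Noct, which encodes the rhythmic protein nocturnin, rose to 306 ± 63.5 CPM from 15.6 ± 3.49, a change of 4.28 (SE 0.172, edgeR adjusted p = 3.62e-12). Tsc22d3, a glucocorticoid-induced leucine zipper gene that is rhythmic in many organs, fell to 46.1 ± 3.74 CPM from 295 ± 66.1, a change of -2.68 (SE 0.169, edgeR adjusted p = 6.64e-10). Wee1, a mitosis-inhibiting kinase gene under E-box control, fell by -1.41 (SE 0.152, edgeR adjusted p = 3.2e-07). In PMA_1002 versus PMA_ethanol these 3 changed by -1.26, 1.14 and 0.73 (edgeR adjusted p = 5.48e-06, 3.48e-05 and 0.000975), and leaving out the 6 hair-rich libraries ended the Wee1 call (adjusted p = 0.0792). Of 11 tested kinase, ubiquitin ligase and deubiquitinase genes 3 rose and 3 fell with PMA_ethanol, beside the same shares of all genes, the largest change being that of Prkaa2, a catalytic subunit of AMP-activated kinase (-1.44, SE 0.212, edgeR adjusted p = 1.22e-05).

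Glucocorticoids reset skin clocks and induce Per1, so 5 genes of that hormone were read beside it. With PMA_ethanol 4 fell and 0 rose (35.9% and 32.5% of all genes), among them Zbtb16, a hormone-induced zinc finger gene (-2.03, SE 0.338, edgeR adjusted p = 9.38e-05), and Nr3c1, the receptor gene itself (-0.92, SE 0.0943, edgeR adjusted p = 1.79e-07), while Fkbp5 was at 0.05 (SE 0.173, edgeR adjusted p = 0.804). Sgk1 and Klf9 changed less, by -0.37 and -0.41 (edgeR adjusted p = 0.0176 and 0.00994). Zbtb16 ranged from 37.2 to 112 CPM within the controls. In PMA_1002 versus PMA_ethanol 1 was higher and 0 lower (17% and 18% of all genes), and in PMA_1002 versus control 0 were higher and 2 lower (28.4% and 26.7%).

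**Figure D4:**
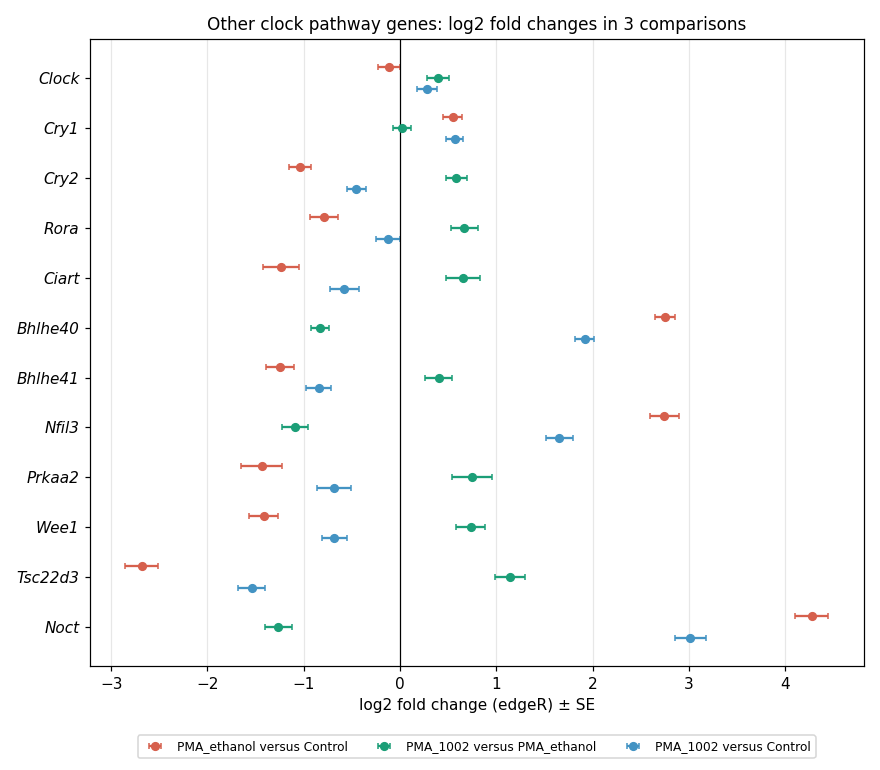
Log2 fold changes (horizontal axis) ± SE of 12 clock pathway genes outside the 10 members in the 3 comparisons. Nfil3, Bhlhe40 and Noct lie right of 0 for PMA_ethanol versus control and left of it for PMA_1002 versus PMA_ethanol, and Cry2, Rora, Ciart, Bhlhe41, Prkaa2, Wee1 and Tsc22d3 do the reverse.

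Cell type markers moved with the groups too. Beside the counts below, 32.5% of all genes were higher and 35.9% lower in the first comparison. Those shares were 17% and 18% in the second, and 28.4% and 26.7% in PMA_1002 versus control. The 5 keratinocyte markers summed to 18646 to 24443 CPM in control, 10473 to 13834 in PMA_ethanol and 21014 to 24209 in PMA_1002, and 4 of 5 fell and then 5 of 5 rose in the first 2 comparisons. The 5 neutrophil markers summed to 9.3 to 18.4 CPM, 535 to 926 and 139 to 232, with all 4 tested members higher in both groups with PMA and Ly6g, a defining marker, with too few reads to be tested. Macrophage markers summed to 326 to 409, 692 to 862 and 465 to 581 CPM, but went both ways, with 2 of 5 higher and 1 lower in the first comparison and 1 higher and 3 lower in the second. Of 5 fibroblast markers 1 was higher and 2 lower in the first comparison, and 0 and 1 in the second. Skeletal muscle markers, with 0 of 5 called in any comparison, ran from 697 to 2143, 430 to 2409 and 824 to 1592 CPM. The part of these cell types in the differences of the clock genes was not tested. Without the 6 hair-rich libraries the log2 fold change of Dbp was -3.11 for PMA_ethanol versus control, that of Per2 -0.38 and that of Arntl -0.17, and 6 members were lower, 5 higher and 6 lower in the order of the comparisons. The PMA_ethanol group then held only libraries 3 and 4, and library 4 had the highest Per2 of its group (61.8 CPM). The shares of all genes called in that fit are not given here.

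**Figure D5:**
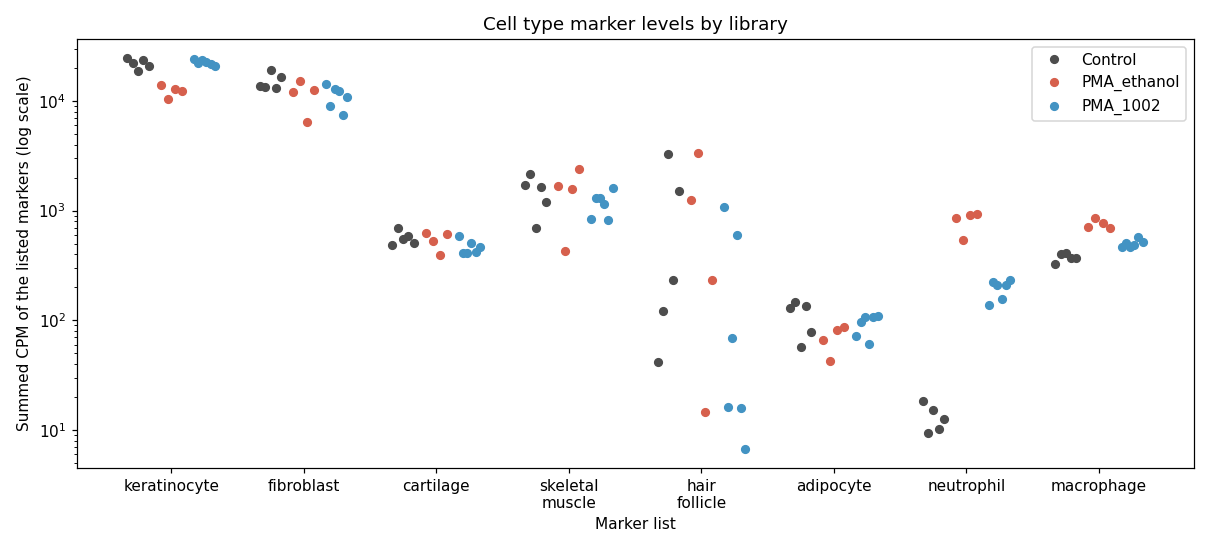
Summed CPM of each marker list by library (vertical axis, log scale), coloured by group. Neutrophil markers separate the 3 groups, keratinocyte markers are lowest in PMA_ethanol, and hair follicle markers range from 6.78 to 3350 CPM within and across groups.

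Within groups the members varied unequally. The biological coefficient of variation was 31.2% for Hlf, larger than for 92.2% of the genes tested, and 22.6% for Per2 (81.7% of genes below), beside a median of 14.2% over all genes. Arntl (13.0%) and Tef (13.1%) lay just below that median, and the other 6 members between 14.4% and 19.0%. Within the 6 PMA_1002 libraries, variation that did not enter the choice of members, Arntl was set against each other member. With Per1 the correlation of log2 CPM was r = 0.943 (exact permutation p = 0.00139, adjusted over 9 relations p = 0.0125) and rho = 1 (exact permutation p = 0.00278, adjusted p = 0.025, two-sided). Without PMA_1002 libraries 1 and 6, the farthest from the Arntl median, r was 0.766 over 4 libraries, too few for an adjusted p to be read. With Npas2 r was 0.853 (exact permutation adjusted p = 0.075, rho = 0.943 with exact permutation adjusted p = 0.075), and for the other 7 the adjusted p was at least 0.141 for r and at least 0.1 for rho. The relation of Arntl to Dbp was r = 0.5 (exact permutation adjusted p = 0.467). Over all 15 libraries the r of Arntl with Per1 was 0.302, so their relation is given for the PMA_1002 libraries only. How many of all genes correlated as strongly with Arntl in those libraries was not counted.

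Genes of most like pattern were ranked by Pearson r of log2 CPM over the 15 libraries among 12275 genes outside the 10 members with a mean of at least 5 CPM, as a description over libraries that share 3 groups. Among the members themselves Dbp was most like Tef (r = 0.987) and Per3 (r = 0.978). Outside them, the genes most like Dbp were Ssbp2 (r = 0.982), Mettl7a1 (0.980), Sh3yl1 (0.979), Trim65 (0.978) and 2510009E07Rik (0.978). Mettl7a1 went from a mean of 86.7 CPM in control to 11.3 in PMA_ethanol and 23.9 in PMA_1002, beside 86.9, 8.03 and 21.9 for Dbp. For Arntl the likeness was weaker, with Qars at r = 0.841 and Faf2 at 0.795, and then Ankrd54 (0.771), Lce1k (0.767, one of a family of near-identical genes, whose counts are uncertain) and Map1lc3a (0.746).

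On GRCm38 the members lie on 6 chromosomes. Arntl (ENSMUSG00000055116) spans chromosome 7 from 113207465 to 113314126 and Dbp (ENSMUSG00000059824) the same chromosome from 45705088 to 45710203. Per1 (ENSMUSG00000020893) spans chromosome 11 from 69095217 to 69109960, Nr1d1 (ENSMUSG00000020889) 98767932 to 98775333 and Hlf (ENSMUSG00000003949) 90336536 to 90390895 there. Npas2 (ENSMUSG00000026077) and Per2 (ENSMUSG00000055866) lie on chromosome 1, from 39193731 to 39363236 and from 91415982 to 91459324. Per3 (ENSMUSG00000028957) lies on chromosome 4 from 151003652 to 151044665, Nr1d2 (ENSMUSG00000021775) on chromosome 14 from 18204054 to 18239127 and Tef (ENSMUSG00000022389) on chromosome 15 from 81802421 to 81826863. Dbp shares 539 exonic bases with Sphk2 and Nr1d1 shares 263 with Thra, both on the opposite strand, so reads there are uncertain because the strand setting of the counting is not given. Sphk2 changed by -0.71 (SE 0.127, edgeR adjusted p = 9.17e-05) and Thra by -1.01 (SE 0.159, edgeR adjusted p = 2.9e-05) in PMA_ethanol versus control. Dbp, at -3.50, differed far more than Sphk2, and Nr1d1, at -0.95, was close to Thra. The part of reads from the shared bases in these values was not tested.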

How the data were processed

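Ear polyA RNA of 15 mouse libraries (control 5, PMA_ethanol 4, PMA_1002 6, from the sample titles) was sequenced from stranded libraries, per the labels' protocols. The deposited values are raw read counts per Ensembl gene, 1 table per library. FastQC 0.11.5, MultiQC 0.8, STAR 2.5 and HTSeq with GRCm38 are named in the submitters' processing notes; the sources used here do not state the annotation release or strand option. Reads not assigned to any gene, 28.5% to 32.85% per library, were left out of totals and tests. Symbols, positions and exon lengths came from GENCODE M21 (GRCm38), with 48435 of 48795 genes named.

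Counts were fitted in R 4.3.3 with edgeR 4.0.16 (TMM, filterByExpr by group, 14991 genes, robust quasi-likelihood test over all 15 libraries with group as the only term, Benjamini-Hochberg adjustment, threshold 0.05). The fit was tested on simulated data in which few genes changed. In these libraries most genes were called in 2 of the comparisons, so that test does not bear on the scaling used here. SE came from the F statistic, and log2 CPM used a prior count of 2. Alternatives were other scalings, no filter, DESeq2 1.42.0, a replicate block, fits of 2 groups, each library left out, and, chosen after seeing the data, leaving out 6 libraries with at least 500 CPM of hair follicle markers. Members and lists were chosen with earlier results of these data known. Named are all members, 8 set pathway genes, called pathway and glucocorticoid genes with a log2 fold change of at least 1, and the 5 genes most like Dbp and Arntl. Sphk2, Thra, Nr3c1, Fkbp5, Sgk1, Klf9, Ly6g, Matn1, Rorb and Fbxl21 were added to the named genes once their values were known. Of the pathway list, 1 gene enters the counts but its values are not reported here. Reads in genes per library ran from 2656680 to 28585995.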

Additional observations from a re-analysis of the deposited data

Results flagged for a closer look

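Within each group the library highest or lowest in CPM was compared with its nearest neighbour for the 10 members and 12 named pathway genes, 66 gene and group pairs in all, and a gap above Dixon's 95% critical value was marked. Chance alone marks about 1 in 20 groups, and 7 were marked here.

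PMA_ethanol library 4 accounted for 3 of the 7. It had 61.8 CPM of Per2 against 29.4 in the nearest library of its group, 56.6 CPM of Cry2 against 43.2, and 9.73 CPM of Ciart against 5.59. It was also the highest of its group for Per3, Tef and Hlf. Its skeletal muscle markers summed to 2409 CPM, against 430 to 1665 in the other 3, and their part in these values was not tested. Without it, PMA_ethanol means were 28.6 CPM for Per2, 42.5 for Cry2 and 5.47 for Ciart, and each of the 3 genes was then below every control and every PMA_1002 library.

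The others were Arntl at 42.5 CPM in PMA_ethanol library 1 (nearest 30.6), Nfil3 at 71.35 CPM in PMA_ethanol library 3 (nearest 85.4), Tef at 302 CPM in control library 3 (nearest 344) and Tef at 197 CPM in PMA_1002 library 6 (nearest 149). PMA_ethanol library 3 had the fewest reads in genes, and control library 3 had 3266 CPM of hair follicle markers.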

How the results depend on the processing

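Over 23 alternatives the log2 fold change for PMA_ethanol versus control ranged from -3.74 to -3.11 for Dbp, -3.95 to -2.94 for Hlf, -2.84 to -2.49 for Per3, -2.35 to -1.97 for Tef, -1.34 to -0.97 for Nr1d2, -1.19 to -0.77 for Nr1d1 and -1.10 to -0.38 for Per2. The ranges of Per1, Arntl and Npas2 were -0.465 to -0.102, -0.206 to 0.096 and 0.196 to 0.53. Upper-quartile and total-read scaling shifted the median of all genes in that comparison by -0.236 and -0.23. The count of members higher there went from 1 to 0 with upper-quartile scaling, with total-read scaling and without the 6 hair-rich libraries, and was 0 to 1 with 1 library left out. For PMA_1002 versus control it went from 0 to 1 with DESeq2 size factors and with DESeq2, and was 0 to 1 with 1 library left out. Pathway genes higher in PMA_1002 than in PMA_ethanol numbered 14 with total-read scaling and 2 without the 6 libraries, where fewer samples were fitted and PMA_ethanol kept only libraries 3 and 4. Of 276 alternative counts of calls 263 stayed within 1.5 times the main count. The shares of all genes called in these alternatives are not given here, so nothing is read from the counts about these genes. Clock in PMA_ethanol versus control was at 0.018 without the 6 libraries. Cry1 in PMA_1002 versus PMA_ethanol, which did not pass, was at -0.0165 with DESeq2 size factors, -0.0090 with DESeq2, and with 1 library left out it reached from -0.03378 to 0.07415. The correlation of Arntl within PMA_1002 was 0.876 for Npas2 and 0.00519 for Per2 with upper-quartile scaling. For Npas2 the exact permutation adjusted p was then 0.025, beside 0.075 with TMM, so whether it passed depended on the scaling. Without the 2 farthest libraries it was 0.766 for Per1, -0.29 for Dbp, -0.000443 for Tef and -0.249 for Hlf. The cause of these changes was not tested.

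The labels do not state whether equal replicate numbers mark paired samples. Over 13 pairs of libraries with the same number in different groups, deviations from the group means correlated between -0.533 and 0.579 (median -0.241). Pairs with different numbers ran from -0.614 to 0.686 (median 0.108). Such wide ranges cannot exclude a shared batch or pairing. With the replicate block 7 members were lower and 1 higher in PMA_ethanol than in control, 5 were higher in PMA_1002 than in PMA_ethanol, and 6 were lower in PMA_1002 than in control. Pathway genes called were then 9 higher and 9 lower, 7 and 7, and 9 and 9. The shares of all genes called with the block are not given here, so nothing is read from these counts.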
